A study of Arabidopsis thaliana with 60 samples.

Results

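The 10 stem cuticular wax genes described here are LACS2 (AT1G49430), KCS1 (AT1G01120), FDH (AT2G26250), CER6 (AT1G68530), CER2 (AT4G24510), CER3 (AT5G57800), CER1 (AT1G02205), MAH1 (AT1G57750), CER4 (AT4G33790) and WSD1 (AT5G37300). They are 10 of the 37967 genes counted, and they were chosen by locus for their known roles in the wax of the stem surface, not by a threshold on a measured value, although earlier results of these data were known when they were chosen. RNA of stems of Arabidopsis thaliana, grown for 9 to 10 weeks in 0.5x Noren medium, was sequenced in 5 groups of 3 biological replicates. Trial 1 held the HCT-RNAi line, in which HCT, an enzyme of lignin synthesis, is silenced by RNA interference, the line labelled gpt2-1, a mutant named for GPT2, the glucose 6-phosphate translocator of the plastid envelope, and the wild type Col-0, called Col0_1. Trial 2 held the line labelled 35S GPT2 (35SGPT2), which overexpresses GPT2 from the 35S promoter, active in most tissues, and a separate set of wild type Col-0, called Col0_2. No treatment is named for any group, all lines were set against Col-0, and the labels give neither the number of plants in a sample nor the number of independent transformants in a line. Values below are read counts divided by library size after scaling by the TMM method (TMM CPM), unless stated otherwise. Samples are given in the order 1, 2 and 3. A gene is called higher or lower at an adjusted p under 0.05 in the quasi-likelihood test of edgeR, adjusted over all genes tested.

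The cuticle is the lipid layer that covers the epidermis of the shoot and limits water loss. Fatty acids leave the plastid, are joined to coenzyme A, and are lengthened to very-long-chain acyl-CoAs by an elongase complex in the endoplasmic reticulum of epidermal cells. From there an alkane-forming branch yields alkanes, secondary alcohols and ketones, which dominate the wax of Arabidopsis stems, and an alcohol-forming branch yields primary alcohols and wax esters. Acyl-CoA synthetases such as LACS2 supply the acyl-CoAs, KCS1, FDH and CER6 are condensing enzymes of the elongase, CER2 works with CER6, CER3 and CER1 form alkanes, MAH1 oxidises them, CER4 makes primary alcohols, and WSD1 joins these to fatty acids as wax esters.

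The 250 bases before the annotated start of 4 of these genes are shown because CER1, CER6, MAH1 and FDH were each lower in both lines of trial 1 and each hold a motif searched for. They were read from the RefSeq copy of assembly TAIR10.1, 5′ to 3′ on the strand of the gene. Capitals mark the matches, which are MYB-type letters (TAACTA or TAACTC) in CER1, CER6 and MAH1, and an L1 box (TAAATGCA or TAAATGTA), the letters that homeodomain factors of the outer cell layer bind, in FDH.
CER1, chr1:418166-418415, plus strand: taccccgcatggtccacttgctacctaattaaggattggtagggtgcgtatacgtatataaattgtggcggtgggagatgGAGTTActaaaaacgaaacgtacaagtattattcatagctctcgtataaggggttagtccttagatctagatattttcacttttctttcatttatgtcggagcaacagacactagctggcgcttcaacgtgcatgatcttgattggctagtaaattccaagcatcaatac
CER6, chr1:25715025-25715274, minus strand: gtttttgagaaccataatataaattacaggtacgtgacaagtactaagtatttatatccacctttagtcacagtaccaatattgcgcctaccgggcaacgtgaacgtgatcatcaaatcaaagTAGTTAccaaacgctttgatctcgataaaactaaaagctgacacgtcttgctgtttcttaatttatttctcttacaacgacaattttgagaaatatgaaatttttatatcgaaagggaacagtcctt
MAH1, chr1:21385710-21385959, minus strand: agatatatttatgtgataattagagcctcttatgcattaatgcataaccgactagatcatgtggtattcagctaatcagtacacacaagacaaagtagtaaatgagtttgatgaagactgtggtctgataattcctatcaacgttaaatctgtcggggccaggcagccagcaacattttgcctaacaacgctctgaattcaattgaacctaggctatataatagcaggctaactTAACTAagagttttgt
FDH, chr2:11173279-11173528, minus strand: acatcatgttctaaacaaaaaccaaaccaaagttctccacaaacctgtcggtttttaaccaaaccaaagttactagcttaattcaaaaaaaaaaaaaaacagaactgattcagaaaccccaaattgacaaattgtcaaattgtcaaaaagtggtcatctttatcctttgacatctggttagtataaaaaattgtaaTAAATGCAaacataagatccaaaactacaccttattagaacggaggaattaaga
The matches in CER1 and CER6 lie on the opposite strand and start 170 and 127 bases before the gene, and those in MAH1 and FDH lie on the gene's strand and start 16 and 54 bases before it. CER2 also held a MYB-type match, so 4 of the 10 members held those letters, against 29.4% of 27438 protein-coding genes. The L1 box was in 1 of 10 members, against 4.49% of those genes. Any of the 4 motifs was in 5 of 10 members, against 38.3% of those genes. A G-box (CACGTG) was in 0 of 10 members, against 6.49%, and a GCC-box (GCCGCC) in 0 of 10, against 1.87%. CER3, CER4, WSD1, KCS1 and LACS2 held none of these letters in this window. Both strands were searched, overlapping matches of different motifs were kept, and a match describes letters only.

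Total counts were 16591700 to 26129812 per sample in trial 1 and 3827816 to 31713084 in trial 2, where sample 2 of 35SGPT2 and sample 1 of Col0_2 (5258309) were the shallowest. In 5 of the 6 tables of trial 2 the counts follow the row order of the 35SGPT2 sample 1 table, not their own row labels, and were read in that order. Over the 100 rows on each side of each member, their rank correlation with that table was 0.841 to 0.993 as read here, against -0.0674 to 0.221 as labelled. HCT was at 152, 141 and 137 TMM CPM in HCT-RNAi, against 360, 387 and 340 in Col0_1. GPT2 was at 125, 125 and 132 TMM CPM in the libraries labelled gpt2-1, against 1.41, 1.15 and 1.4 in Col0_1, so the transcript of the gene named in the label was more abundant there. GPT2 was also higher in HCT-RNAi, at 6.24, 9.94 and 9.26 CPM without TMM scaling, against 1.49, 1.2 and 1.51 in Col0_1. Its log2 fold change there was 2.49 to 2.79 over the 6 fits that left out a sample, and it was called in all 6. GPT2 was at 293, 276 and 226 TMM CPM in 35SGPT2, against 6.82, 1.01 and 1.07 in Col0_2. The plants behind the gpt2-1 label therefore cannot be taken as lacking GPT2 transcript, and directions below refer to the libraries so labelled. Stem samples are a mix of tissues, so fewer epidermal cells and less RNA per epidermal cell cannot be told apart in any value below.

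Per kilobase of merged exons, CER6 was the most abundant member in all 5 groups, at 179 ± 2.1 TMM CPM per kb in HCT-RNAi, 153 ± 6.69 in the libraries labelled gpt2-1, 289 ± 7.24 in Col0_1, 290 ± 15.7 in 35SGPT2 and 334 ± 29.3 in Col0_2 (SD, n = 3 each). CER1 and CER3 followed in every group, and their sample ranges overlapped in both wild type sets. FDH, KCS1 and MAH1 formed a middle rank, at 40.4, 37.0 and 38.9 TMM CPM per kb in HCT-RNAi, against 67.5, 57.9 and 53.9 in Col0_1. LACS2 and WSD1 were the lowest in all 5 groups, with WSD1 at 2.48 TMM CPM per kb in HCT-RNAi, against 2.46 in Col0_1. CER4 and CER2 lay between, and their ranges overlapped each other in HCT-RNAi, 35SGPT2 and Col0_2. In trial 2 they were not clear of the middle rank, since CER4 overlapped KCS1 in 35SGPT2 and CER2 overlapped MAH1 in Col0_2. MAH1 ranked 4 in 35SGPT2, at 96.0 ± 23.2 TMM CPM per kb and clear of FDH at 58.1 ± 8.3, and ranked 6 in Col0_2, at 36.0 ± 7.3 (SD, n = 3 each). CER6, CER1 and CER3 together held 81.9% to 83.1% of the summed TMM CPM of the 10 genes in HCT-RNAi, 78.2% to 78.8% in the libraries labelled gpt2-1, 81.9% to 83.2% in Col0_1, 72.7% to 75.8% in 35SGPT2 and 76.9% to 79.2% in Col0_2.

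**Figure D1:**
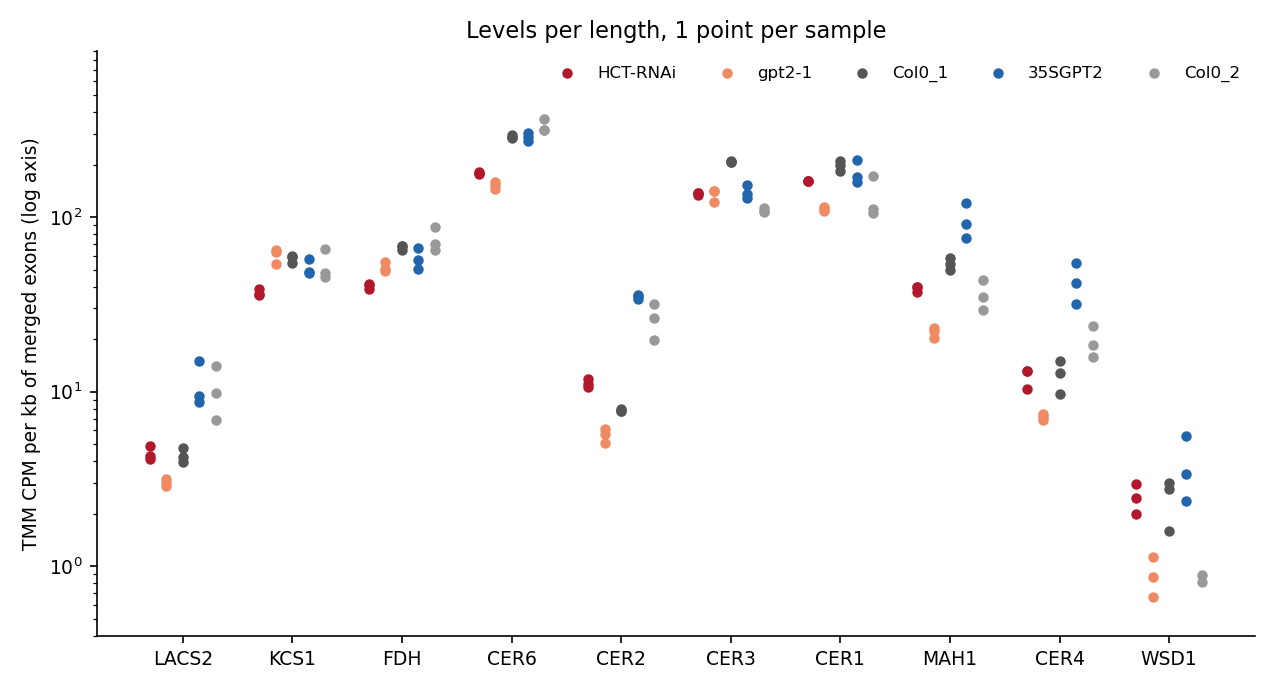
TMM CPM per kilobase of merged exons, on a log axis, for each wax gene in each of the 15 samples, with 1 point per sample; the Col0_2 sample with 0 WSD1 counts has no point. CER6 is on top in each group and WSD1 at the bottom, and the 35SGPT2 points of MAH1, CER4 and WSD1 lie above all of their Col0_2 points.

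In HCT-RNAi stems, 6 of the 10 wax genes were lower than in Col0_1, 1 was higher and 3 did not pass the test. All 20053 genes tested give the scale for these counts, with 26.5% lower and 29.2% higher. The genes that fell were the condensing enzymes KCS1, FDH and CER6 and the alkane branch CER3, CER1 and MAH1, by 1.23- to 1.67-fold. The median of the 10 log2 fold changes was -0.38, against 0.00 over all genes tested. In the libraries labelled gpt2-1, 9 of the 10 were lower than in Col0_1 and 0 were higher, against 25.8% lower and 27.4% higher among the same 20053 genes, and the median was -0.70, against -0.01 over all genes. Only KCS1 did not pass the test there, with edgeR at an adjusted p of 0.286, and 0 members were higher at an unadjusted p under 0.05 or by DESeq2. The summed level of the 10 genes was 1687 to 1708 TMM CPM in HCT-RNAi and 1382 to 1529 in the libraries labelled gpt2-1, against 2362 to 2492 in Col0_1. Both comparisons use the same 3 Col0_1 samples.

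In 35SGPT2 stems, 2 of the 10 wax genes, MAH1 and CER4, were higher than in Col0_2 and 0 were lower, against 1.4% higher and 1.11% lower among 18364 genes tested. At an unadjusted p under 0.05, 6 members were higher and 0 lower in edgeR, and DESeq2 called 3 higher, with WSD1 (adjusted p = 0.00213), and 0 lower. DESeq2 called 918 of 23875 genes in all, 510 of them higher. The share of all genes at an unadjusted p was not counted, so the count of 6 has no scale here. The median of the 10 log2 fold changes was 0.38, against 0.02 over all genes tested. Samples of the same number deviated together in the 2 groups of this trial. That pairing was read from these same counts, so calls made with it are not separate support. With the number kept as a block in the edgeR fit, 4 members were higher: MAH1, CER4, WSD1 (log2 fold change 2.79, adjusted p = 0.0328) and CER1 (0.50, adjusted p = 0.0227). Over all genes, 1103 were called with the block and 462 without it.

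**Figure D2:**
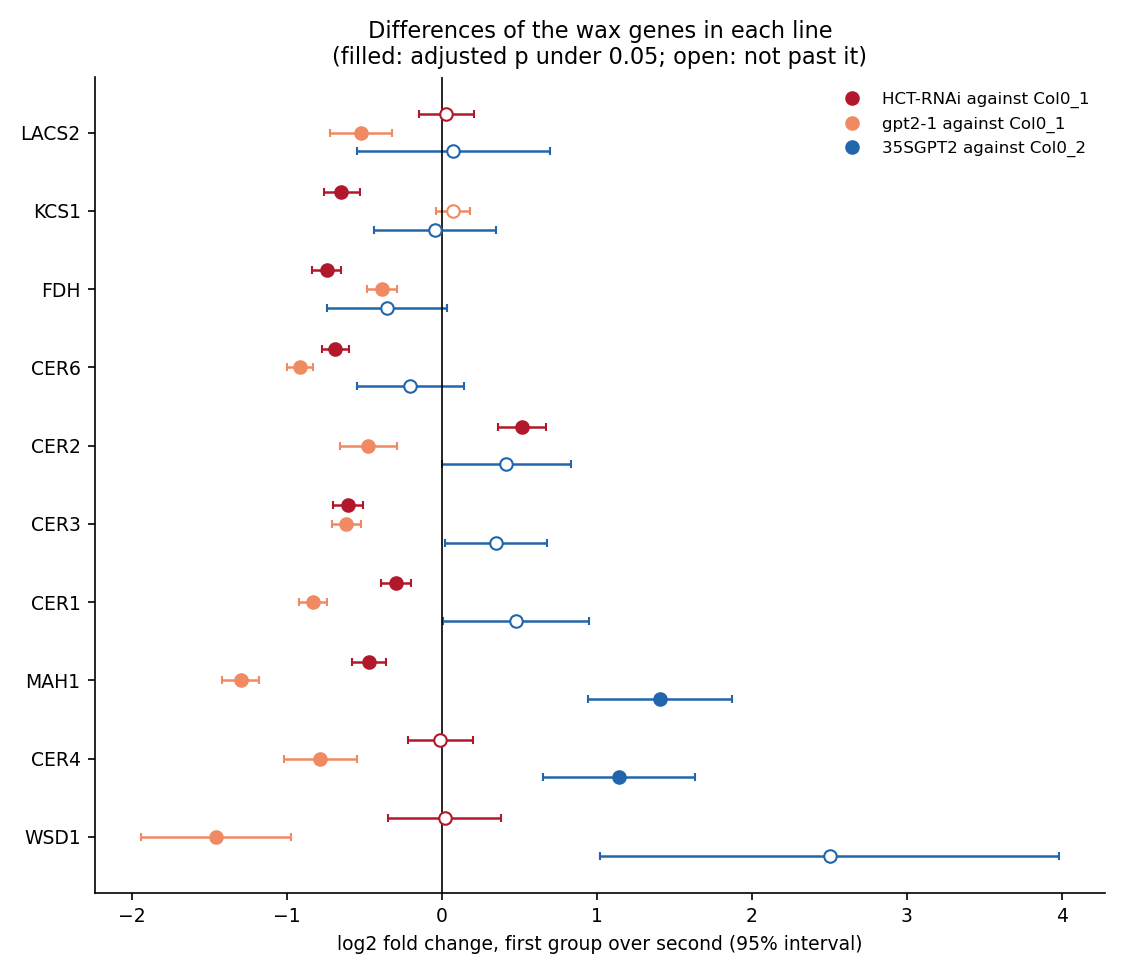
Log2 fold change with its 95% interval for each wax gene in HCT-RNAi against Col0_1, in the libraries labelled gpt2-1 against Col0_1, and in 35SGPT2 against Col0_2; filled points passed an adjusted p of 0.05. The gpt2-1 points lie left of 0 for every gene but KCS1, and the 35SGPT2 points of MAH1, CER4 and WSD1 lie farthest to the right.

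LACS2 lies on chromosome 1 from 18290942 to 18295905 on the plus strand and encodes a long-chain acyl-CoA synthetase known for its part in cutin, the polyester of the cuticle. It measured 12.3, 14.1 and 11.8 TMM CPM in HCT-RNAi and 8.7, 9.08 and 8.3 in the libraries labelled gpt2-1, against 13.7, 12.2 and 11.3 in Col0_1. HCT-RNAi overlapped Col0_1, and each gpt2-1 sample was below all 3 Col0_1 samples. LACS2 was lower by 1.43-fold in the gpt2-1 libraries (log2 fold change -0.52 ± 0.097 SE, adjusted p = 4.61e-05), and its log2 fold change in HCT-RNAi was 0.03 ± 0.087 (adjusted p = 0.798). In trial 2 it measured 27.1, 43.1 and 25.0 TMM CPM in 35SGPT2, against 19.6, 40.1 and 28.4 in Col0_2. Sample 2 was the highest in both groups, the ranges overlapped, and the log2 fold change was 0.07 with a 95% interval of -0.55 to 0.70 (adjusted p = 0.943).

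KCS1 (chromosome 1, 57164 to 59215, minus strand) encodes a condensing enzyme of the elongase with a broad substrate range. It measured 73.2, 74.6 and 79.7 TMM CPM in HCT-RNAi and 133, 130 and 111 in the libraries labelled gpt2-1, against 123, 121 and 112 in Col0_1. KCS1 separated the lines of trial 1: all HCT-RNAi samples were below every other trial 1 sample, while the gpt2-1 samples ran on both sides of Col0_1. It fell by 1.57-fold in HCT-RNAi (log2 fold change -0.65 ± 0.056, adjusted p = 8.07e-11). In the gpt2-1 libraries the log2 fold change was 0.07 with a 95% interval of -0.04 to 0.18; with library totals in place of TMM scaling, which shifts the median of all genes by -0.22 there, it was -0.15 (adjusted p = 0.0137). Without gpt2-1 sample 3 it was 0.15 (adjusted p = 0.0168). In trial 2 KCS1 measured 118, 99.6 and 98.8 TMM CPM in 35SGPT2, against 136, 93.4 and 99 in Col0_2, with a log2 fold change of -0.04 (95% interval -0.44 to 0.35, adjusted p = 0.946).

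FDH, also named KCS10 (chromosome 2, 11170416 to 11173278, minus strand), encodes a condensing enzyme of the epidermis, known for mutants in which organs fuse. It measured 87.5, 93.5 and 92.0 TMM CPM in HCT-RNAi and 114, 125 and 110 in the libraries labelled gpt2-1, against 147, 155 and 154 in Col0_1. The 3 groups did not overlap, with HCT-RNAi lowest. FDH was the member with the largest drop in HCT-RNAi, 1.67-fold (log2 fold change -0.74 ± 0.046, adjusted p = 9.84e-14), and it was 1.31-fold lower in the gpt2-1 libraries (-0.39 ± 0.046, adjusted p = 4.9e-08). In trial 2 it measured 151, 114 and 128 TMM CPM in 35SGPT2, against 199, 158 and 147 in Col0_2. Those groups overlapped, at a log2 fold change of -0.35 (95% interval -0.74 to 0.03, adjusted p = 0.423).

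CER6, also named KCS6 (chromosome 1, 25712414 to 25715024, minus strand), encodes the main condensing enzyme for the long chains of stem wax. It measured 467, 462 and 473 TMM CPM in HCT-RNAi and 399, 417 and 382 in the libraries labelled gpt2-1, against 749, 775 and 738 in Col0_1. Neither line reached the lowest wild type sample. CER6 fell by 1.61-fold in HCT-RNAi (log2 fold change -0.69 ± 0.041, adjusted p = 3.83e-14) and by 1.89-fold in the gpt2-1 libraries (-0.92 ± 0.042, adjusted p = 4.99e-17). In trial 2 CER6 measured 800, 757 and 718 TMM CPM in 35SGPT2, against 962, 830 and 828 in Col0_2. All 35SGPT2 samples were below all Col0_2 samples, yet the log2 fold change of -0.20 had a 95% interval of -0.55 to 0.14 and an adjusted p of 0.639.

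CER2 (chromosome 4, 12660687 to 12662656, plus strand) encodes a protein of the BAHD acyltransferase family that CER6 needs to reach the longest chains. It measured 17.5, 19.3 and 18.1 TMM CPM in HCT-RNAi and 8.31, 9.29 and 9.97 in the libraries labelled gpt2-1, against 12.7, 13.0 and 12.6 in Col0_1. It was the member called higher in HCT-RNAi, by 1.43-fold (log2 fold change 0.52 ± 0.076, adjusted p = 1.57e-06), and it was 1.39-fold lower in the gpt2-1 libraries (-0.48 ± 0.088, adjusted p = 4.29e-05). CER2 is also the single member with exon bases under exons of the opposite strand, 412 of 1627 (25.3%), shared with AT4G07275 (316 bases) and ATR1 (96 bases). Over the 491 genes tested with 20% to 30% of such bases, the median log2 fold change in HCT-RNAi against Col0_1 was 0.33 and 56.2% were called higher, against -0.04 and 23.6% over the 14453 genes with none. In the gpt2-1 libraries against Col0_1 the same 491 genes had a median of -0.03. Genes of this kind are counted low in both of those groups, so this median does not show the gpt2-1 counts of CER2 to be free of that limit. The strand setting of the counting is not given, and what part of the CER2 rise these bases carry was not tested. In trial 2 CER2 measured 58.2, 58.0 and 54.9 TMM CPM in 35SGPT2, against 32.1, 43.3 and 51.6 in Col0_2. These groups did not overlap, at a log2 fold change of 0.42 (95% interval 0.00 to 0.83, adjusted p = 0.376).

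CER3 (chromosome 5, 23420184 to 23424117, plus strand) encodes the partner of CER1 in the complex that turns very-long-chain acyl-CoAs into alkanes. It measured 357, 354 and 349 TMM CPM in HCT-RNAi and 368, 366 and 316 in the libraries labelled gpt2-1, against 537, 541 and 534 in Col0_1. Every sample of both lines lay below all 3 wild type samples. The drop was 1.52-fold in HCT-RNAi (log2 fold change -0.61 ± 0.047, adjusted p = 8.83e-12) and 1.54-fold in the gpt2-1 libraries (-0.62 ± 0.047, adjusted p = 4.45e-12). CER3 measured 352, 399 and 333 TMM CPM in 35SGPT2, against 276, 292 and 281 in Col0_2. All 35SGPT2 samples were above all Col0_2 samples, at a log2 fold change of 0.35 (95% interval 0.02 to 0.68, adjusted p = 0.339).

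CER1 (chromosome 1, 418416 to 422579, plus strand) encodes the alkane-forming enzyme itself. It measured 578, 582 and 578 TMM CPM in HCT-RNAi and 399, 412 and 391 in the libraries labelled gpt2-1, against 712, 758 and 663 in Col0_1. The 3 groups did not overlap, with the gpt2-1 libraries lowest. CER1 was lower by 1.23-fold in HCT-RNAi (log2 fold change -0.30 ± 0.044, adjusted p = 2.16e-06) and by 1.78-fold in the gpt2-1 libraries (-0.83 ± 0.045, adjusted p = 2.59e-15). In trial 2 CER1 measured 768, 610 and 571 TMM CPM in 35SGPT2, against 618, 400 and 381 in Col0_2. Sample 1 was the highest of both groups and the ranges overlapped, while each 35SGPT2 sample was above the Col0_2 sample of its number. The log2 fold change was 0.48 ± 0.215 (adjusted p = 0.371), and it passed the test with the sample number as a block, as given above.

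MAH1, also named CYP96A15 (chromosome 1, 21383812 to 21385709, minus strand), encodes the cytochrome P450 that oxidises alkanes to secondary alcohols and ketones. It measured 70.5, 75.7 and 75.6 TMM CPM in HCT-RNAi and 42.2, 44.2 and 38.6 in the libraries labelled gpt2-1, against 110, 94.1 and 102 in Col0_1. The groups were separate and stood in the same order as for CER1. MAH1 was lower by 1.38-fold in HCT-RNAi (log2 fold change -0.47 ± 0.054, adjusted p = 2.26e-08) and by 2.46-fold in the gpt2-1 libraries (-1.30 ± 0.058, adjusted p = 3.4e-17). In trial 2 MAH1 measured 173, 230 and 143 TMM CPM in 35SGPT2, against 55.5, 83.0 and 66.3 in Col0_2. Every 35SGPT2 sample was above every Col0_2 sample, and sample 2 was the highest in both groups. The rise was 2.65-fold (log2 fold change 1.41 ± 0.209, adjusted p = 0.00675), and it passed the test in all 6 fits that left out a sample, with the largest adjusted p at 0.046.

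CER4, also named FAR3 (chromosome 4, 16204096 to 16207956, minus strand), encodes the fatty acyl-CoA reductase that makes the primary alcohols of the wax. It measured 20.3, 25.8 and 25.8 TMM CPM in HCT-RNAi and 14.6, 14 and 13.5 in the libraries labelled gpt2-1, against 25.0, 18.9 and 29.3 in Col0_1. HCT-RNAi lay within the wild type range, at a log2 fold change of -0.01 (95% interval -0.22 to 0.20, adjusted p = 0.948). The gpt2-1 libraries were 1.72-fold lower (-0.78 ± 0.114, adjusted p = 1.21e-06). In trial 2 CER4 measured 81.7, 107 and 61.9 TMM CPM in 35SGPT2, against 46.7, 36.4 and 31.0 in Col0_2. The groups did not overlap, and the rise was 2.20-fold (log2 fold change 1.14 ± 0.223, adjusted p = 0.0247). It lost the call in 4 of 6 fits that left out a sample, with adjusted p at 0.124 and 0.0842 without 35SGPT2 sample 1 or 2, and at 0.0722 and 0.0995 without Col0_2 sample 2 or 3.

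WSD1 (chromosome 5, 14767426 to 14770396, plus strand) encodes the wax synthase that makes the wax esters of the stem. It measured 4.11, 6.11 and 5.09 TMM CPM in HCT-RNAi and 1.78, 2.34 and 1.38 in the libraries labelled gpt2-1, against 6.2, 3.3 and 5.73 in Col0_1. HCT-RNAi overlapped the wild type (log2 fold change 0.02, 95% interval -0.35 to 0.38, adjusted p = 0.941), and the gpt2-1 libraries lay below both and were 2.75-fold lower than Col0_1 (-1.46 ± 0.237, adjusted p = 3.57e-06). WSD1 was the scarcest member, with 0 to 149 counts per sample. In trial 2 it measured 4.91, 11.4 and 6.92 TMM CPM in 35SGPT2 (55, 46 and 82 counts), against 0, 1.83 and 1.67 in Col0_2 (0, 29 and 53 counts). The count of 0 came from the shallowest wild type library, where it allows up to 0.601 TMM CPM at 3 counts. All 35SGPT2 samples were above all Col0_2 samples, at a log2 fold change of 2.5 ± 0.669 that missed the threshold (adjusted p = 0.0971). Without Col0_2 sample 1 it was 2.07 and passed (adjusted p = 0.0124), and over the 6 fits that left out a sample it ranged over 2.07 to 2.79 with adjusted p up to 0.337. Sample 2 of 35SGPT2, the shallowest library of all, held the highest value of its group for WSD1, CER4, MAH1, CER3 and LACS2.

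**Figure D3:**
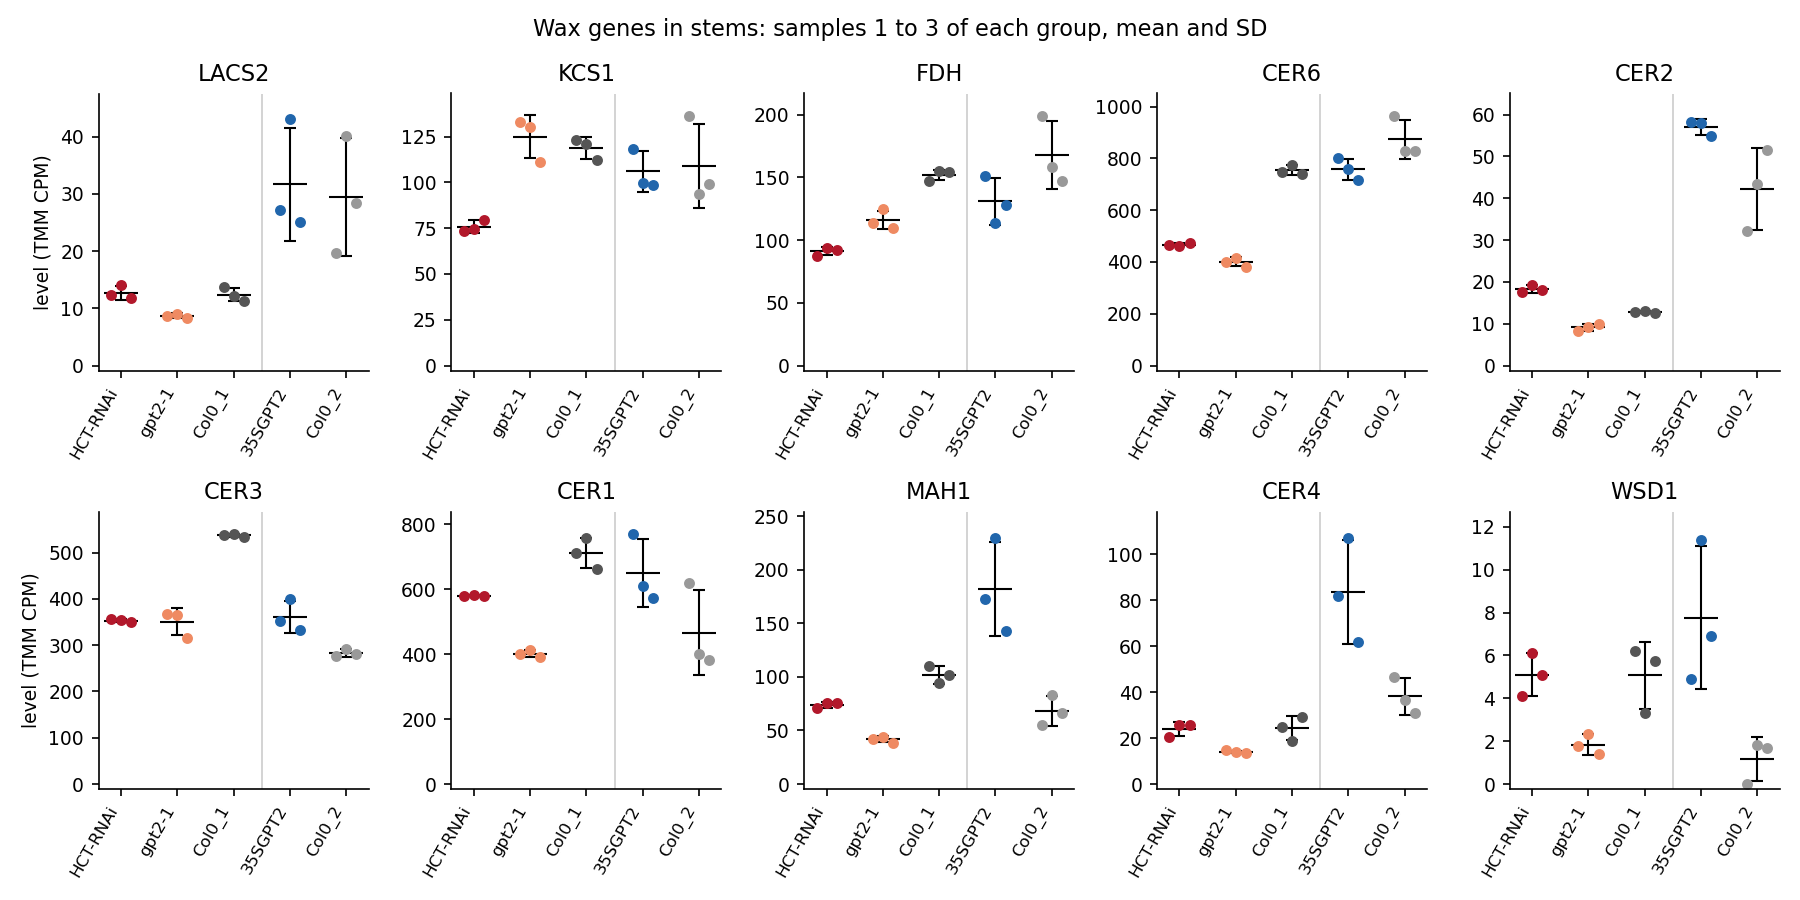
TMM CPM of each wax gene in samples 1, 2 and 3 (left to right) of HCT-RNAi, gpt2-1 and Col0_1 (trial 1, left of the grey line) and of 35SGPT2 and Col0_2 (trial 2), with the mean and SD; the 2 trials were scaled separately. CER6 and CER3 show both trial 1 lines below Col0_1, and MAH1, CER4 and WSD1 show 35SGPT2 above Col0_2.

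The 2 lines of trial 1 were then set against each other directly, within the fit of all 9 samples of trial 1. HCT-RNAi was higher than the libraries labelled gpt2-1 for 7 of the 10 genes and lower for 2, against 35.3% higher and 32.8% lower among 20053 genes. WSD1 differed most, at 5.1 ± 1.0 TMM CPM in HCT-RNAi against 1.83 ± 0.482 in the libraries labelled gpt2-1 (SD, n = 3 each). Its log2 fold change was 1.48 (edgeR, adjusted p = 1.25e-06). CER2 (0.99), MAH1 (0.83), CER4 (0.77), LACS2 (0.55), CER1 (0.53) and CER6 (0.23) were also higher in HCT-RNAi on the log2 scale. The CER2 value has the same limit as its rise over Col0_1, since 25.3% of its exon bases lie under opposite-strand exons. Among genes without such bases, 6 of 9 members were higher and 2 lower, against 30.3% higher and 36.0% lower of 14453 genes. KCS1 (-0.72, adjusted p = 4.21e-12) and FDH (-0.36, adjusted p = 1.71e-07) were lower there. CER3 did not separate the lines, at 0.01 with a 95% interval of -0.08 to 0.11. With library totals in place of TMM scaling, which shifts the median of all genes by 0.21 in this comparison, CER3 was 0.23 (adjusted p = 8.24e-05).

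The response to GPT2 overexpression and the difference seen in the libraries labelled gpt2-1 were set against each other in a single fit of all 15 samples, as 35SGPT2 minus Col0_2 less gpt2-1 minus Col0_1. Of 20645 genes tested, 9.32% were higher and 13% lower in this term. Of the 10 wax genes 7 were higher and 0 lower: WSD1 by 3.73 ± 0.6 on the log2 scale, MAH1 by 2.63 ± 0.211, CER4 by 1.89 ± 0.268, CER1 by 1.26 ± 0.21, CER3 by 0.92 ± 0.123, CER2 by 0.82 ± 0.195 and CER6 by 0.66 ± 0.121. The largest adjusted p among these was 0.00521, for CER2, and 0 members were lower at an unadjusted p under 0.05 or by DESeq2. FDH (-0.01, 95% interval -0.35 to 0.34), KCS1 (-0.16, -0.53 to 0.22) and LACS2 (0.50, -0.14 to 1.13) did not pass. In the same term all 6 xylem and fibre markers were higher (median 1.07), all 3 cambium markers were higher (median 0.69), and 1 of 8 epidermis markers was higher and 0 lower in edgeR (median 0.19; 1 lower at an unadjusted p under 0.05 and by DESeq2), against a median of -0.04 over all genes. The part of these markers in the wax values was not tested. GPT2 itself, above wild type in both lines, gave 0.57 ± 0.546 in this term (adjusted p = 0.519).

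That term rests on 2 sets of wild type, and these differed from each other. In Col0_2 against Col0_1, 28.6% of 19373 genes were higher and 27.8% lower, and among the wax genes 2 were higher and 4 lower. This fit of the 6 wild type samples has its own TMM scaling, so its levels differ somewhat from those given for each sample above. In it, CER2 averaged 41.1 TMM CPM in Col0_2 and 14.1 in Col0_1 (log2 fold change 1.57 ± 0.184, adjusted p = 0.000166), and LACS2 averaged 28.5 in Col0_2 and 13.7 in Col0_1 (1.08 ± 0.242, adjusted p = 0.00528). CER3 was lower by 1.11 ± 0.091, CER1 by 0.80 ± 0.176, MAH1 by 0.76 ± 0.153 and WSD1 by 2.05 ± 0.611 on the log2 scale, so the 3 genes of the alkane branch and WSD1 were lower in Col0_2. Beside them, 4 of 7 epidermis markers were lower and 1 higher (median -1.35), 5 of 6 xylem and fibre markers were lower and 0 higher (median -0.90; 0 higher also at an unadjusted p under 0.05 or by DESeq2), and 2 of 4 chlorenchyma markers were higher and 1 lower (median 0.60), and their part in the wax values was not tested. WSD1 kept that call in 3 of 6 fits that left out a sample. CER6, the most abundant member, gave 0.03 with a 95% interval of -0.21 to 0.26. For the 479 genes with 20% to 30% of exon bases under the opposite strand, the class that CER2 is in, the median of this comparison was 0.43, against -0.09 over the 13897 genes with none. What set the wild type sets apart (batch, growth, sequencing or counting) cannot be told apart, and no sample of a line was prepared in both trials.

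**Figure D4:**
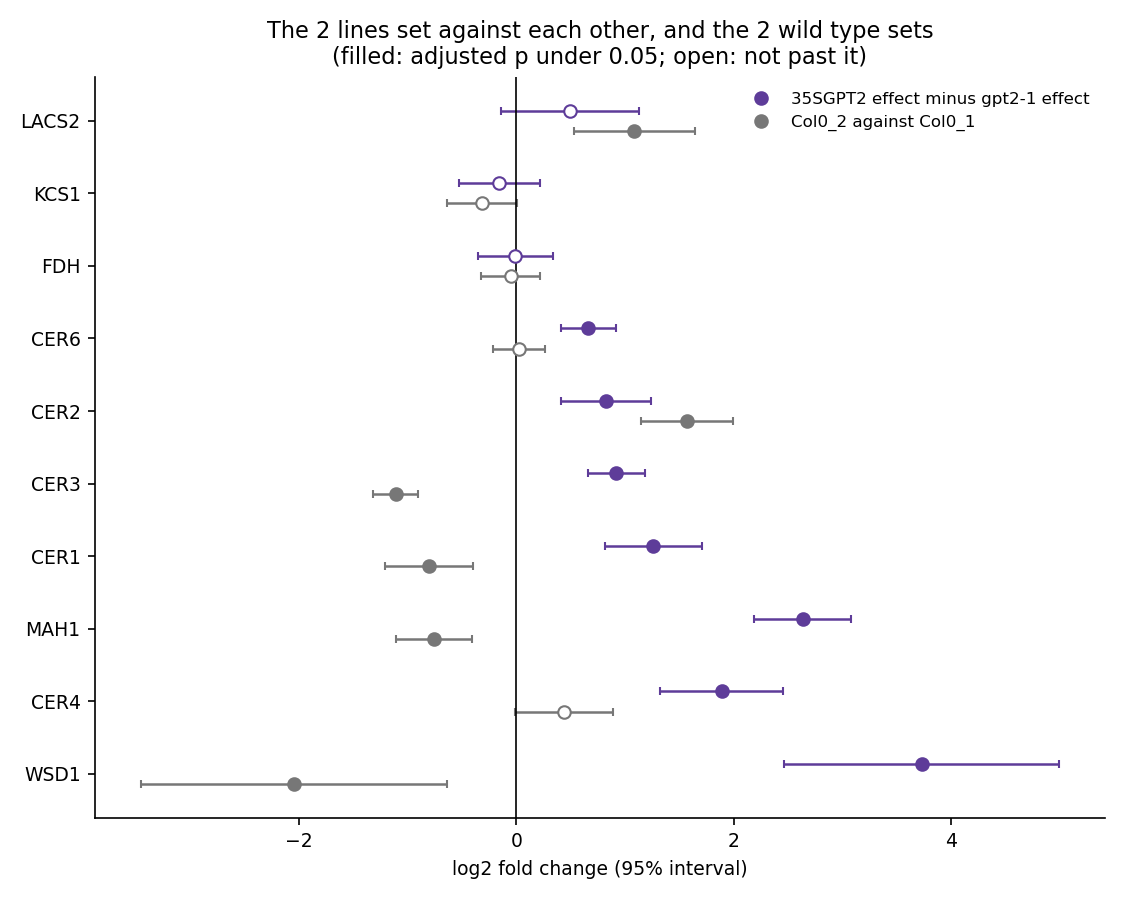
Log2 fold change with its 95% interval for each wax gene in the difference between the 35SGPT2 and gpt2-1 responses (purple) and in Col0_2 against Col0_1 (grey); filled points passed an adjusted p of 0.05. CER3, CER1, MAH1 and WSD1 lie right of 0 in the first and left of 0 in the second.

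The other genes of cuticle formation were read in 7 lists, to be held against 29.2% higher and 26.5% lower over all genes in HCT-RNAi and 27.4% higher and 25.8% lower in the libraries labelled gpt2-1. In HCT-RNAi, of the exporters that carry wax and cutin monomers across the plasma membrane (median -0.11), 4 of 9 tested were lower and 0 higher (0 also at an unadjusted p under 0.05 or by DESeq2): ABCG12 by 0.54 on the log2 scale (113 against 164 TMM CPM), ABCG32 by 0.60 (52.7 against 80.1), ABCG11 by 0.47 (51.9 against 71.7) and the scarce ABCG13 by 0.77 (1.07 against 1.75). ABCG13 lost the call with DESeq2 (adjusted p = 0.0667) and in 4 of 6 fits that left out a sample, and ABCG11 has 32% of its exon bases under opposite-strand exons. In the cutin synthesis list (median 0.13) 5 of 12 were higher, 2 lower and 5 not called; CYP86A2, an omega-hydroxylase, was at 84.2 against 22.0 TMM CPM (log2 fold change 1.94), CUS2, a cutin synthase, at 5.05 against 0.743 (2.78), CYP86A4 at 4.72 against 1.53 (1.65), and DCR, an acyltransferase, at 8.46 against 3.99 (1.10). CYP86A2 has 41% of its exon bases under opposite-strand exons, and CUS2, CYP86A4 and DCR have none. Of the other elongase genes 3 of 14 were higher and 5 lower, among them KCS12 (-0.73), KCS20 (-0.42) and the cytosolic acetyl-CoA carboxylase ACC1 (-0.36); KCS2 was higher (2.01) with 63.6% of its exon bases under the opposite strand.

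The list of wax activation and modification had 2 of 8 genes higher and 4 lower in HCT-RNAi, with the acyl-CoA synthetase LACS1 at 93.0 against 138 TMM CPM (log2 fold change -0.56), CYTB5-B, a cytochrome b5 known as a partner of CER1, at -0.34, WSD6 at -0.47 and CYTB5-C at 0.78. The regulators had 4 of 15 higher and 5 lower, with the repressor DEWAX at 148 against 107 TMM CPM (0.47), the activator WRI4, with 16.9% of its exon bases under opposite-strand exons, at 22.6 against 32.4 (-0.52) and SPL9 at 9.61 against 3.74 (1.36). MYB106, which had 0 counts in all Col0_1 samples, averaged 0.924 TMM CPM in HCT-RNAi, and 76% of its exon bases lie under opposite-strand exons. Plastid fatty acid supply had 5 of 9 higher and 2 lower, with FATB, the thioesterase that releases saturated fatty acids, at 247 against 342 TMM CPM (-0.47), FAX1 at -0.31, MOD1 at 0.39 and KASI at 0.35. None of the 8 suberin genes was abundant enough in trial 1 to be tested.

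In the libraries labelled gpt2-1, LACS1 was again lower, at 66.5 against 138 TMM CPM in Col0_1 (log2 fold change -1.05, adjusted p = 2.41e-17). Its list had 4 of 8 higher and 2 lower, with CYTB5-C (1.14) and LACS4 (0.76) higher and CYTB5-B (-0.35) lower. The elongase list had 3 of 14 higher and 8 lower, including CER10, the enoyl reductase of the complex, at 19.3 against 32.0 TMM CPM (-0.73), KCS12 (-0.57), KCS8 (-0.63) and KCS2 (-1.45). Of the exporters 4 of 9 were lower and 1 higher, with ABCG12 at -0.74, ABCG11 at -0.72, ABCG32 at -0.31 and the lipid transfer protein LTPG1 at 0.47. Among the regulators 9 of 15 were lower and 4 higher: the activator MYB94 was at 3.08 against 8.32 TMM CPM (-1.43), while the repressors DEWAX (63.1 against 107, -0.76) and DEWAX2 (59.6 against 104, -0.80) were lower too and SAGL1, an F-box protein that limits CER3, was higher (0.60). The cutin list had 2 of 12 higher and 3 lower by edgeR, and 2 higher and 1 lower by DESeq2, with GPAT4 (0.51) and CUS1 (0.34) higher and CYP77A6 (-1.35) and CYP86A8 (-0.47) lower. Fatty acid supply had 3 of 9 higher and 4 lower, with the plastid fatty acid exporter FAX1 (0.76) and FAB2 (0.19) higher and LACS9 (-0.35) and FATB (-0.23) lower. With library totals in place of TMM scaling CUS1 lost its call and FAB2 turned to -0.04, and CYP86A8 lost its call with DESeq2 and in 3 of 6 fits that left out a sample.

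In 35SGPT2 against Col0_2, 0 genes of the elongase (13 tested), export (9), cutin (11), regulator (16) and fatty acid supply (9) lists passed the test of edgeR in either direction. Of all 18364 genes tested, 1.4% were higher and 1.11% lower, so 0 calls in lists of this size lies near that share. At an unadjusted p under 0.05, 4 of these elongase genes, 1 export, 1 cutin, 2 regulator and 1 fatty acid supply gene passed, and the share of all genes was not counted there. DESeq2 called 1 elongase gene lower and 0 genes of the other 4 lists, against 918 of 23875 genes in all. Of the 7 tested genes of wax activation and modification, CYTB5-B was higher, at 190 against 90.3 TMM CPM (log2 fold change 1.07, adjusted p = 0.00743), and CYTB5-C (-0.99) and WSD7 (-1.97) were lower. CYTB5-B has 36.2% of its exon bases under opposite-strand exons. CYTB5-B kept its call in 5 of 6 fits that left out a sample, CYTB5-C in 2 and WSD7 in 1. Of 4 suberin genes tested 3 were lower: CYP86A1 at 0.875 against 12 TMM CPM (-3.87), CYP86B1 at 0.319 against 7.89 (-4.52) and ASFT at 2.43 against 13.4 (-2.38, called in 4 of 6 fits that left out a sample). Suberin is a lipid polyester known from roots, seed coats and bark. Without TMM scaling, the summed level of the 8 suberin genes was 34.0 to 42.0 CPM in Col0_2. It was 3.03 to 5.75 in 35SGPT2 and at most 2.45 in any sample of trial 1, so Col0_2 stood apart from the other 4 groups. What part this has in the wax values was not tested.

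**Figure D5:**
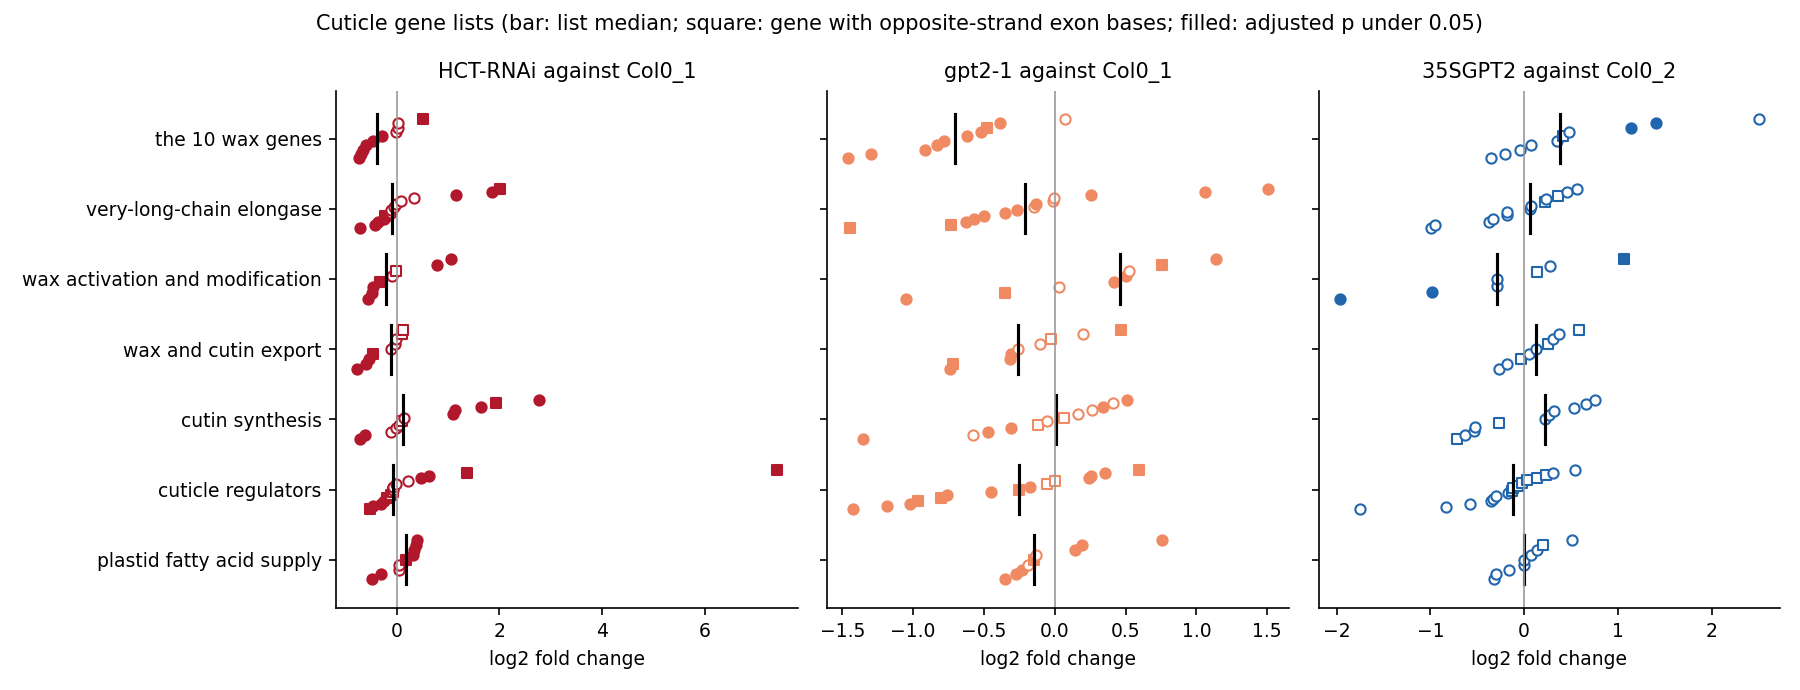
Log2 fold changes of the genes tested in each cuticle list for HCT-RNAi against Col0_1, the libraries labelled gpt2-1 against Col0_1, and 35SGPT2 against Col0_2; the bar is the list median, filled marks passed an adjusted p of 0.05, and squares are genes with exon bases under opposite-strand exons. The 10 wax genes in the top row have medians of -0.38, -0.70 and 0.38, and the far right mark of the first panel is MYB106, whose fitted value has no bound since Col0_1 is at 0. The 3 panels have their own scales, and the suberin list is not drawn.

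The epidermis, where these genes are known to act, was followed by 9 markers, of which ALE1 was at 0 in every sample. Marker sums in this paragraph are CPM from library totals, without TMM scaling, while the calls are from the TMM-scaled fits. Leaving out TMM shifts the median of all genes by -0.22 in the gpt2-1 libraries against Col0_1, so the gpt2-1 sums read low. The epidermis markers summed to 108 to 131 CPM in HCT-RNAi, 87.4 to 88.1 in the libraries labelled gpt2-1 and 100 to 113 in Col0_1. In trial 2 they summed to 52.2 to 80.5 CPM in 35SGPT2, against 60.6 to 80.5 in Col0_2. Of 8 tested in HCT-RNAi, PDF1 (log2 fold change 1.67), LTP1 (1.52) and LTP2 (1.91) were higher and ATML1 (-0.68) and PDF2 (-0.34), the homeodomain factors that define the layer, were lower. Of 8 tested in the gpt2-1 libraries, PDF1 (1.43) was higher and LTP1 (-1.07) and ACR4 (-0.94) were lower. Of 5 tested in 35SGPT2, LTP1 (1.91) was higher. The 4 guard cell markers summed to 43.1 to 45.5 CPM in HCT-RNAi (1 higher, 1 lower) and 31.3 to 33.7 in the gpt2-1 libraries (0 higher, 1 lower), against 52.5 to 55.3 in Col0_1. The 6 xylem and fibre markers, genes of secondary walls, summed to 3957 to 4252 CPM in HCT-RNAi (1 higher, 4 lower) and 3453 to 3576 in the gpt2-1 libraries (0 higher, 5 lower), against 4469 to 5084 in Col0_1. They summed to 3699 to 5475 CPM in 35SGPT2, against 2475 to 3012 in Col0_2. There 2 were higher and 0 lower by edgeR, and 6 of 6 were higher by DESeq2 and at an unadjusted p under 0.05. The 4 chlorenchyma markers, genes of photosynthesis, summed to 13504 to 13964 CPM in HCT-RNAi (4 higher, 0 lower) and 8255 to 8442 in the gpt2-1 libraries (0 higher, 2 lower), against 9689 to 11237 in Col0_1. In the TMM-scaled fits their median log2 fold change was 0.38 in HCT-RNAi and -0.10 in the gpt2-1 libraries. The 3 cambium markers summed to 221 to 244 CPM in HCT-RNAi (2 higher, 0 lower) and 110 to 125 in the gpt2-1 libraries (0 higher, 3 lower), against 197 to 210 in Col0_1. The 3 phloem markers summed to 330 to 351 CPM in HCT-RNAi (0 higher, 1 lower) and 274 to 294 in the gpt2-1 libraries (0 higher, 2 lower), against 365 to 397 in Col0_1. The part of these differences in tissue markers in the wax values was not tested.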

How the data were processed

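Stem RNA was made into stranded mRNA libraries with a TruSeq kit, per the labels' protocols. The authors deposited raw read counts per gene, whole numbers with no normalization; the submitters' processing notes name STAR, DESeq2 and TAIR10. For the counter, its strand setting and its annotation: not given in the sources used here. The 60 records hold 15 samples, 4 records to each count table of 38186 rows, of which 219 without a gene name (at most 0.00117% of counts) were left out. In 5 tables of trial 2 the counts were read in the row order of another table, as described above, and PGD1 was left out of trial 2 fits.

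Counts were fitted with edgeR 4.0.16 (TMM scaling, filterByExpr, quasi-likelihood F test, Benjamini-Hochberg adjustment over all genes tested, threshold 0.05), with 1 fit of the 9 samples of trial 1, 1 of the 6 of trial 2, 1 of all 15 for the difference of effects and 1 of the 6 wild type samples, each scaled on its own; 95% intervals use the SE and the t distribution with the degrees of freedom of that test, before any adjustment. DESeq2 1.42.0, other scalings and filters, a replicate block and leaving out each sample were alternatives. The code was tested on simulated data. In trial 2, samples of the same number deviated together from their group means (r = 0.155, 0.368 and 0.246 for the 3 pairs), so the numbers were taken to pair them in the fit with the block. The other fits of trial 2, which gave the calls, SEs and intervals of each gene, leave this pairing out. The labels speak of biological replicates without saying how they were kept apart, so p-values measure the spread between these samples. Replicate pairs differed beyond counting noise, with chi-square per degree of freedom at 1.95 to 5.34 in trial 1 and 10.2 to 33.4 in trial 2. Counts of called genes in the 2 trials are therefore not on the same scale. Depth limits WSD1 most, and the floor given for it covers counting error only. In each list and comparison, the 4 called genes with the smallest p were named. The members and lists were chosen with earlier results of these data known. Sequences and positions are from RefSeq on TAIR10.1.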

Additional observations from a re-analysis of the deposited data

How the results depend on the processing

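In the libraries labelled gpt2-1, in HCT-RNAi and between them, every member called by edgeR kept its call and direction under the alternatives run, except CER2 in fits restricted to genes without opposite-strand exon bases, which leave it out: 0 members were then higher in HCT-RNAi, and 1 in Col0_2 against Col0_1. Leaving out samples, 0 to 1 members were higher in the libraries labelled gpt2-1 and 1 to 3 in 35SGPT2. With the replicate block 4 members were higher in 35SGPT2; the trial 1 numbers did not pair samples (same-number r from -0.0758 to 0.0281), and the block there left the member counts as they were, with 10945 genes called in HCT-RNAi and 10438 in the gpt2-1 libraries, against 11167 and 10677 without it. Genes called in 35SGPT2 numbered 462, against 918 by DESeq2, 1103 with the block and 110 to 674 leaving out samples.

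With the re-paired rows, the values that changed sign lay between -0.25 and 0.35. In HCT-RNAi, CER4 gave 0.03 over genes without opposite-strand exon bases and -0.17 to 0.13 leaving out samples, WSD1 -0.24 to 0.22 and LACS2 -0.04 to 0.11. In the gpt2-1 libraries without TMM, KCS1 gave -0.15 and FAB2 -0.04. In 35SGPT2 leaving out samples, KCS1 gave -0.15 to 0.12 and LACS2 -0.19 to 0.35, and in HCT-RNAi against gpt2-1 CER3 gave -0.06 to 0.05. In the difference of the 35SGPT2 and gpt2-1 effects, FDH gave 0.24 without TMM, 0.01 without a filter, 0.01 over genes without opposite-strand exon bases and -0.12 to 0.13 leaving out samples, and KCS1 0.09 without TMM and -0.25 to 0.02. In Col0_2 against Col0_1, CER6 gave -0.01 by RLE, -0.02 by DESeq2 and -0.03 to 0.06, and FDH 0.07 without TMM, 0.02 over genes without opposite-strand exon bases and -0.17 to 0.02. Without TMM, 24.7% of called genes were higher in the gpt2-1 libraries, 71.8% in HCT-RNAi against gpt2-1, 66.7% in the effect difference and 57.9% in Col0_2 against Col0_1. With the row labels of trial 2 as deposited, 35SGPT2 had 0 members higher and 0 genes called (CER4 -0.10, CER6 6.10, FDH 2.77, KCS1 1.73, CYTB5-C 0.71), the effect difference had 0 members higher and 0 genes called (FDH 3.08, KCS1 1.59), and Col0_2 against Col0_1 had 1 member higher and 8 lower with 24896 genes called, against 10914 (CER6 -7.30, LACS2 -11.02). The cause of these other changes was not tested.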

Other observations

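Over the 9 samples of trial 1, 551 of 14143 genes with a mean of at least 5 TMM CPM had a Pearson r above 0.9 with the wax gene profile, members left out of the 551. That profile is the mean, over the 10 genes, of log2(TMM CPM + 1) standardised for each gene. The profile most like it was that of RDR2, an RNA-dependent RNA polymerase (r = 0.995), followed by AT4G21650 (0.991), LACS1 (0.988), HAI2, a protein phosphatase (0.987), and SIP2 (0.986). Over the 6 samples of trial 2 the same genes gave -0.64, 0.93, 0.59, -0.08 and 0.10. With 3 groups in trial 1, these values describe group means more than samples.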
